A study of Mus musculus with 17 samples.

Results

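The genes of voltage-gated potassium (Kv) channel subunits were taken from the deposited count tables as every gene symbol that begins with Kcn, followed by a, b, c, d, f, g, h, q, s or v and a number. The rule found 40 genes among the 25239 rows of each of the 3 tables. It uses no expression value, though earlier results of these data were known when it was chosen. They were measured in bulk RNA from brain samples of DAT-cre mice, a line in which the dopamine transporter (DAT) gene drives Cre recombinase in dopamine neurons. All 6 groups shared this line. Every mouse was assigned to an addiction protocol, oDASS (optogenetic self-stimulation of dopamine neurons), and the labels call the animals that became addicted perseverers and the non-addicted ones renouncers. Imprints of brain tissue taken from the orbitofrontal cortex (OFC) ahead of the protocol make up 2 groups, with 3 libraries of renouncers and 2 of perseverers. Dissections taken after it make up the other 4 groups, with 3 libraries for each phenotype in the OFC and in the medial prefrontal cortex (mPFC). No age, and no link between libraries and single animals, is given in the labels, so that p-values measure the spread between these libraries.

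Kv channels open when the membrane depolarizes and let potassium leave the neuron, which ends the action potential and sets how soon the next can follow. A channel has 4 pore-forming subunits around 1 pore. Kcna, Kcnb, Kcnc and Kcnd genes encode subunits that form channels of their own: Kcna channels sit mainly on axons, Kcnb channels on cell bodies and proximal dendrites, Kcnc channels serve fast firing, and Kcnd channels carry the transient A-type current of dendrites. Kcnq channels carry the M current that muscarinic receptors close, and Kcnh genes encode the ether-a-go-go family. Kcnf, Kcng, Kcns and Kcnv encode silent subunits, which form no channel alone and alter the channels of Kcnb subunits.

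The 250 bases before the transcription start are shown for Kcng4, the member past the threshold between the regions, and Kcnf1, one of the silent-subunit genes lowest in the imprints relative to the dissections, both described further on. Both are on the reverse strand of GRCm38.p6 in RefSeq: the Kcng4 gene lies at chr8:119623854-119635680 with the stretch shown at chr8:119635681-119635930, and the Kcnf1 gene at chr12:17172100-17176888 with the stretch shown at chr12:17176889-17177138. Each is written 5′ to 3′ along the gene, and capitals mark CG dinucleotides.
Kcng4: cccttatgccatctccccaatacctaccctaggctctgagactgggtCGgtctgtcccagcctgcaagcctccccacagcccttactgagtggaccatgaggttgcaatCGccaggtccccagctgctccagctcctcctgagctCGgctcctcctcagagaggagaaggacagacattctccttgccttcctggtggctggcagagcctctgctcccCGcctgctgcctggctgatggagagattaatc
Kcnf1: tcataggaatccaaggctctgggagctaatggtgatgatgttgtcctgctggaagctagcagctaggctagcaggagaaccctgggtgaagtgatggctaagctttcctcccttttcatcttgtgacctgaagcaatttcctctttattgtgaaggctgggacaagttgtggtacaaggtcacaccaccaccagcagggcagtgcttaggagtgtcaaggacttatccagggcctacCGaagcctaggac
The Kcng4 stretch held 4 CG dinucleotides and the Kcnf1 stretch 1, fewer than the median of 14 over the 30 RefSeq promoters of 25 members. The median over all 32851 mouse promoters of the same table was 6. The share of all promoters with at least as many CG dinucleotides was 62.2% for Kcng4 and 92.1% for Kcnf1. The letters TATAAA, searched on both strands, were in 0 of the 30 member promoters and in 12.4% of all promoters. At the other end of the range Kcng3, with 41, and Kcna3, with 31, held the most.

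The 12 dissections held 12392731 to 20945108 counts, of which 21690 to 49467 fell on the 40 genes. The 5 imprints held 8960549 to 10662666 counts. Haemoglobin genes took 85.4% to 90.7% of the counts in 4 imprints and 29.7% in renouncer imprint 1, against at most 0.0787% in the dissections. Without haemoglobin, 6556037 counts remained in renouncer imprint 1 and 980475 to 1306576 in the other 4, and the 40 genes had 6811 counts in the first and 228 to 647 in the others. Of 5 markers of excitatory neurons none was at 0 in the dissections or in the imprints. Their summed level was 1635 to 3192 TPM (counts scaled by gene length and library, here without haemoglobin) in the dissections and 311 to 1415 in the imprints. In bulk tissue, fewer cells of a type and less RNA per cell cannot be told apart.

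Kcnh3, which encodes an ether-a-go-go family subunit abundant in forebrain, had the highest level of the 40 genes. Its TPM over the 12 dissections ran from 109 through a median of 196 to 227 (mean 184 ± 37.3, SD, n = 12), and it stood above the next gene in 12 of 12 libraries. Then followed the silent subunits Kcnv1 (55.1, 81.8 and 113 as lowest, median and highest) and Kcnf1 (54.5, 84.5 and 106.3). These 2 did not keep 1 order, since Kcnv1 was above Kcnf1 in 8 of 12 libraries.

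Within the other families, Kcnc4, a subunit of fast-inactivating channels, led the Kcnc genes with a lowest, median and highest TPM of 22.7, 42.2 and 49.6. Kcna6 led the Kcna genes with 30.0, 36.3 and 47.4. The silent Kcng1 had 9.90, 23.5 and 35.2 and the silent Kcns1 had 17.1, 20.5 and 26.6. Kcnd2, the main dendritic A-type subunit of cortex, had 14.5, 18.8 and 29.0. Summed by family, the mean TPM of the silent genes was 83.7 for Kcnv, 80.4 for Kcnf, 46.0 for Kcng and 42.9 for Kcns. Each was above the 33 of the A-type Kcnd genes, and below the 122 of the Kcna genes and the 241 of the Kcnh genes. Not every family is listed.

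From Kcna1 (27.6) down to Kcnh6 (1.84) the mean TPM fell without a step, and no gene of that stretch stood above the next in more than 9 of 12 libraries until Kcnh6, which was above Kcnq1 in 12 of 12. The remaining 6 genes, Kcnq1, Kcna10, Kcng3, Kcnh8, Kcna7 and Kcnv2, had mean TPM of 0.321, 0.212, 0.205, 0.147, 0.00315 and 0.00228. Kcnq1 forms the slow cardiac current with Kcne1, and Kcnv2 is a retinal subunit. Among the 34 genes above that step the coefficient of variation over the 12 dissections was highest for Kcng4, at 53.8%, and lowest for Kcns1, at 15.0%. The deposited tables do not keep the strand: Kcna6 shared 39.6% of its annotated exon bases with another gene and Kcng2 9.1%, and their counts are less certain for that.

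**Figure D1:**
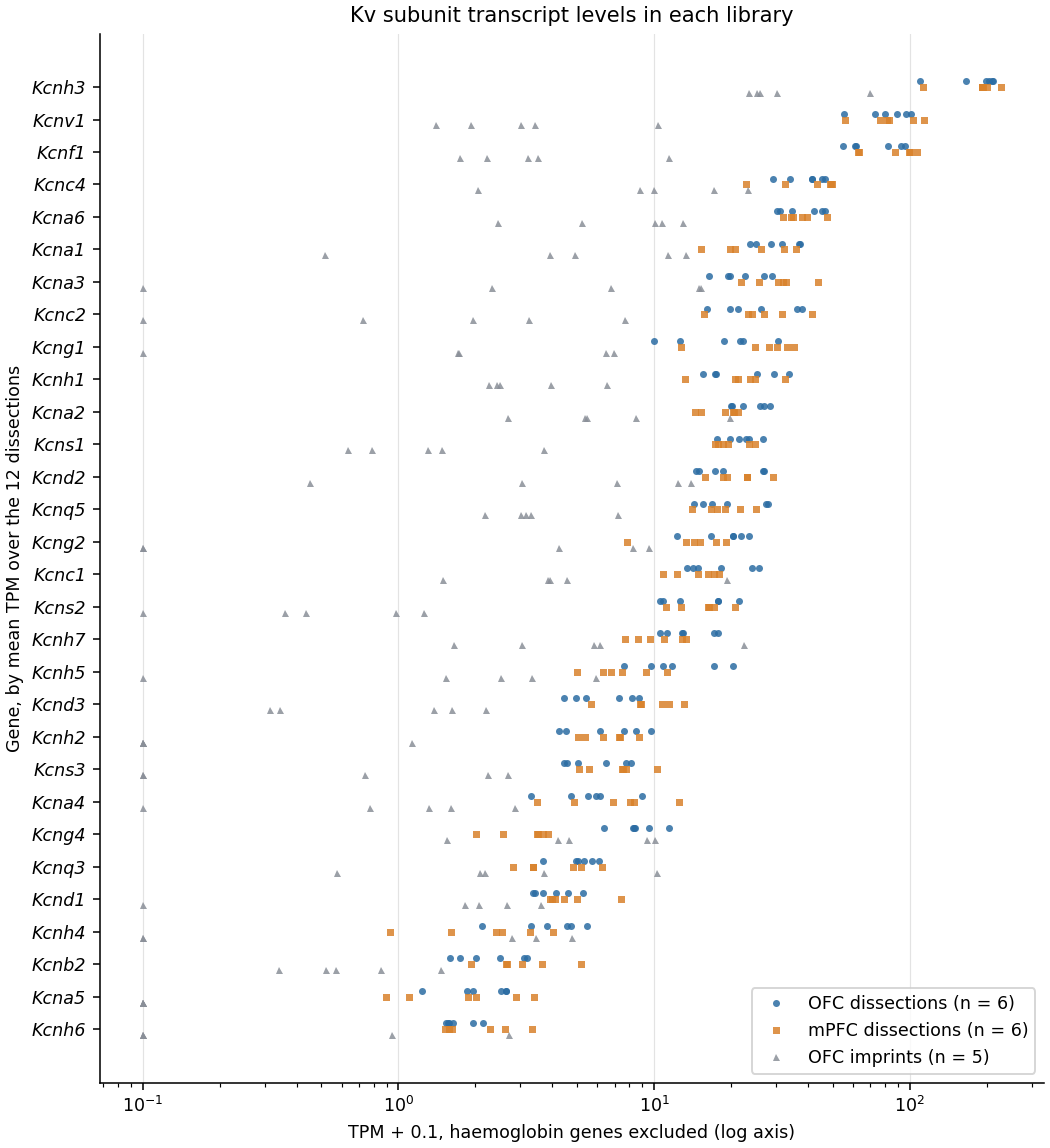
TPM (plus 0.1, on a log axis) of 30 genes with a mean of at least 1 TPM over the 12 dissections, with 1 point per library for OFC dissections (circles), mPFC dissections (squares) and OFC imprints (triangles). Kcnh3 has the highest mean in the dissections, though its lowest point lies to the left of the highest Kcnv1 point. OFC and mPFC points overlap for most genes, and most imprint points lie to the left of the dissections.

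Between the regions, 1 member, Kcng4, a silent subunit that joins Kcnb channels, was higher in the OFC than in the mPFC. Its values in CPM (counts scaled to a common library size by TMM) were 14.5, 14.9 and 11.8 in renouncer OFC and 13.5, 17.9 and 15.1 in perseverer OFC. In the mPFC they were 5.54, 3.15 and 6.48 in renouncers and 5.92, 5.24 and 4.52 in perseverers. The lowest OFC library was above the highest mPFC library, and the means were 14.6 ± 2.0 and 5.14 ± 1.17 (SD, n = 6 each). These values rest on 178 to 333 counts per OFC library and 40 to 92 per mPFC library. The log2 fold change was 1.503 ± 0.18 (SE; edgeR quasi-likelihood test, adjusted p = 5.42e-04). Of 35 members tested 1 passed, where 1.76% of 15025 genes passed. Within renouncers alone the log2 difference of Kcng4 was 1.44 (adjusted p = 0.131) and within perseverers alone 1.55 (adjusted p = 0.117), so that neither phenotype passed by itself. Kcng4 was 1 of 2 members among 35 whose 6 OFC and 6 mPFC values did not overlap, where 1.9% of all genes did not.

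The members that came next by p between regions missed the threshold of an adjusted p under 0.05, and 4 of them follow. Their values with the replicate number as a block, which are lower, are given in the last section. Kcna2, a subunit of axonal channels that restrain firing, had 129, 108.4 and 111.8 CPM in renouncer OFC, 109, 125.45 and 143 in perseverer OFC, 90.9, 74.4 and 77.3 in renouncer mPFC and 100.4, 94 and 113 in perseverer mPFC. The regions overlapped in the highest mPFC library only, and the log2 fold change was 0.41 ± 0.10 (edgeR adjusted p = 0.0600). It passed with DESeq2 (adjusted p = 0.00598), with limma (0.0491), under upper-quartile scaling (0.0491), with a mean count of at least 20 (0.0467), with the gene-length trend removed (0.0143) and without mPFC perseverer 3 (0.0266).

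Kcnh5, an ether-a-go-go subunit, ranged from 14.5 to 32.4 CPM in the OFC and from 9.46 to 18.1 in the mPFC. Its log2 fold change was 0.77 ± 0.21 (adjusted p = 0.0793 with edgeR, 0.0207 with DESeq2, and 0.0412 with edgeR without mPFC perseverer 2). It did not pass with limma, nor with any other single library left out. The other 2 leaned the other way. Kcnd3, an A-type subunit, had 24.6, 19.0 and 17.9 CPM in renouncer OFC and 23.4, 26.8 and 15.8 in perseverer OFC against 34.2, 28.5 and 19.8 in renouncer mPFC and 35.7, 40.01 and 32.1 in perseverer mPFC. Its log2 fold change was -0.56 ± 0.16 (adjusted p = 0.0992 with edgeR, 0.0375 with DESeq2, 0.0198 with limma, and 0.0457 with edgeR without mPFC renouncer 3). Kcna3, a subunit of axon terminals that microglia and lymphocytes also use, had a mean of 19.1 ± 2.56 CPM in the OFC and 26.2 ± 5.35 in the mPFC (SD, n = 6 each), a log2 fold change of -0.45 ± 0.13 (adjusted p = 0.118 with edgeR, 0.0491 with DESeq2, 0.0425 with limma).

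**Figure D2:**
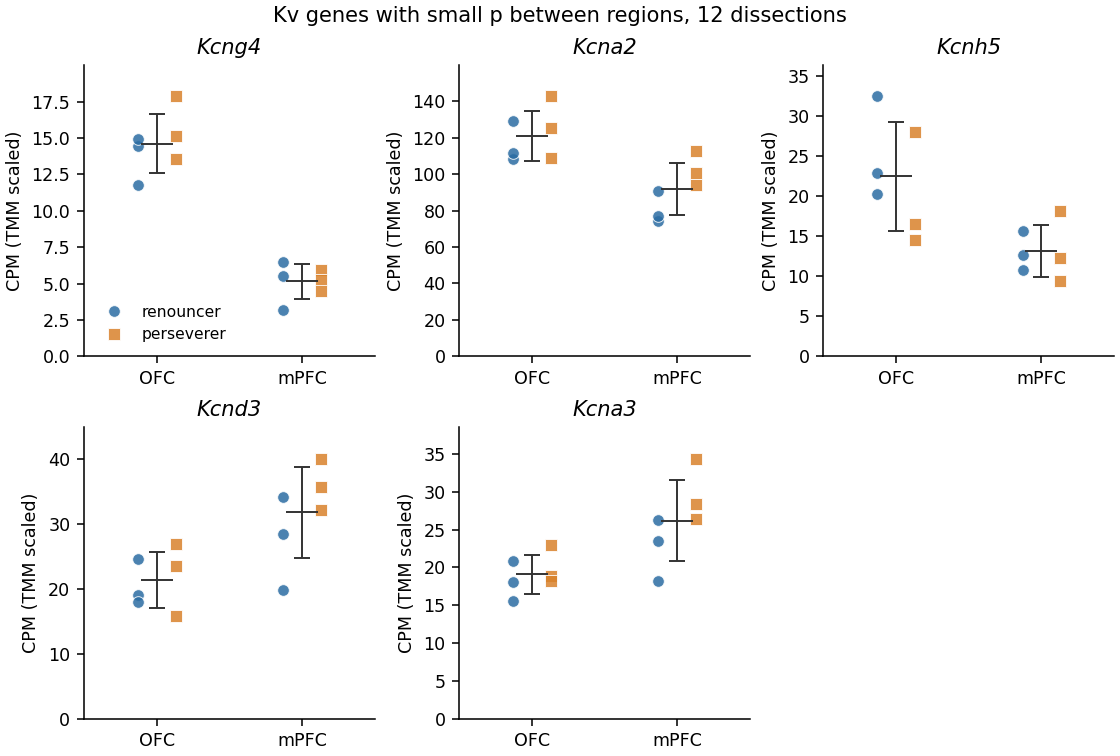
CPM after TMM scaling of 5 Kv genes with small p between regions in each of the 12 dissections (circles renouncers, squares perseverers), with the mean and SD of the 6 libraries of a region as a bar. Kcng4 shows no overlap between OFC and mPFC, and Kcnd3 and Kcna3 are the 2 with the higher mean in the mPFC.

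Kcna2 and Kcna3, which leaned opposite ways, are neighbours on chromosome 3, where Kcna2 lies at chr3:107090883-107115005 and Kcna3 at chr3:107036162-107038129. Over the 35 members 19 differences were positive and 16 negative, with a median of 0.04, beside 0.00 for all genes. An unadjusted p under 0.05 was reached by 13 of 35 members (37.1%), where 14.3% of all genes reached it. After adjustment 6 members passed with DESeq2 (17.1%, where 4.56% of all genes passed) and 4 with limma (11.4%, where 5.91% did). Of 25 genes that encode auxiliary subunits and binding partners of Kv channels, 22 were tested and 0 passed between regions with edgeR (6 at an unadjusted p under 0.05). Their smallest p belonged to Cntn2 (log2 fold change 0.95 ± 0.24, adjusted p = 0.0634), an adhesion protein that places Kcna channels beside the node of Ranvier, Kcnab3 (0.76 ± 0.23, adjusted p = 0.11), a beta subunit of Kcna channels, and Dpp10 (-0.42 ± 0.14, adjusted p = 0.148), an auxiliary subunit of Kcnd channels. Several lists of cell type markers leaned with 1 region. Of 6 oligodendrocyte markers 6 were higher in the OFC (median log2 fold change 0.73, 0 called; summed TPM 2560 to 6871 in the OFC, 1029 to 3142 in the mPFC), of 4 parvalbumin interneuron markers 3 (median 0.65, 1 called; 292 to 518 and 149 to 473), and of 4 meningeal fibroblast markers 4 (median 0.75, 0 called; 56.9 to 460.2 and 35.8 to 176), while 4 of 5 upper-layer markers were lower (median -0.36, 1 called; 242 to 561 and 280 to 596). Of 6 inhibitory neuron markers 5 were lower in the OFC (median -0.19, 0 called), and of 4 microglia markers 4 (median -0.25, 0 called). The striatal projection neuron and astrocyte lists each held 1 marker called higher in the OFC (medians 0.13 and 0.07). No marker of these lists was at 0 in either region, and their part in the Kv differences was not tested.

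Between perseverers and renouncers no Kv gene passed the threshold in either region after oDASS. In the OFC 0 of 34 members passed, where 0% of 14621 genes did, and 0 members reached an unadjusted p under 0.05 with edgeR or DESeq2 (5 with limma, 0 after adjustment). In the mPFC 0 of 35 members passed, where 0% of 14375 genes did, again with 0 members under an unadjusted p of 0.05 with edgeR and DESeq2 and 5 with limma. Log2 differences ran from -0.50 to 0.44 in the OFC, with medians in the OFC and mPFC of 0.03 and 0.09 beside 0.00 and 0.00 for all genes.

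Kcnc4 had the smallest p in the OFC: 49.4, 47.5 and 42.5 CPM in renouncers and 59.3, 55.2 and 59.5 in perseverers (log2 difference 0.31 ± 0.14, adjusted p = 0.951). In the mPFC it had 40.7, 62.9 and 31.8 CPM in renouncers and 61.2, 58.7 and 61.8 in perseverers (0.42 ± 0.24, adjusted p = 0.943), so that renouncer 2 stood above all perseverers.

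Kcnh3 had 328, 306 and 209.9 CPM in renouncer OFC and 356, 319.6 and 384 in perseverer OFC (log2 difference 0.31 ± 0.19, adjusted p = 0.951). Renouncer 3 was the lowest library in both regions, with 208 CPM in the mPFC, where perseverer 3 was the highest with 429. Kcng2, a silent subunit, had 24.2, 21.8 and 16.6 CPM in renouncer OFC and 24.2, 26.8 and 27.2 in perseverer OFC (0.30 ± 0.18, adjusted p = 0.951).

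Kcns3 and Kcna4 leaned lower in perseverer OFC. The silent subunit Kcns3, known from parvalbumin interneurons, had 9.76, 7.0 and 11.4 CPM in renouncers and 5.65, 7.93 and 6.49 in perseverers (-0.50 ± 0.26, adjusted p = 0.951). Kcna4, an A-type Kcna subunit, had 16.9, 10.5 and 13.7 CPM in renouncers and 11.1, 11.8 and 7.38 in perseverers (-0.45 ± 0.25, adjusted p = 0.951). For both genes the groups overlapped.

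In the mPFC the smallest p belonged to Kcna2, with 90.9, 74.4 and 77.3 CPM in renouncers and 100.4, 94 and 113 in perseverers (0.34 ± 0.16, adjusted p = 0.943). Kcna3 had a difference of 0.39 ± 0.22 and Kcnd3 of 0.38 ± 0.23, with an adjusted p of 0.943 for both. In the OFC these 3 genes differed by 0.09, 0.13 and 0.09. Of the 34 members tested in both regions 18 were higher in perseverers in both, 6 lower in both and 10 opposite. The same sign in both was thus found for 70.6% of members, and for 67.9% of the 14204 genes tested in both.

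**Figure D3:**
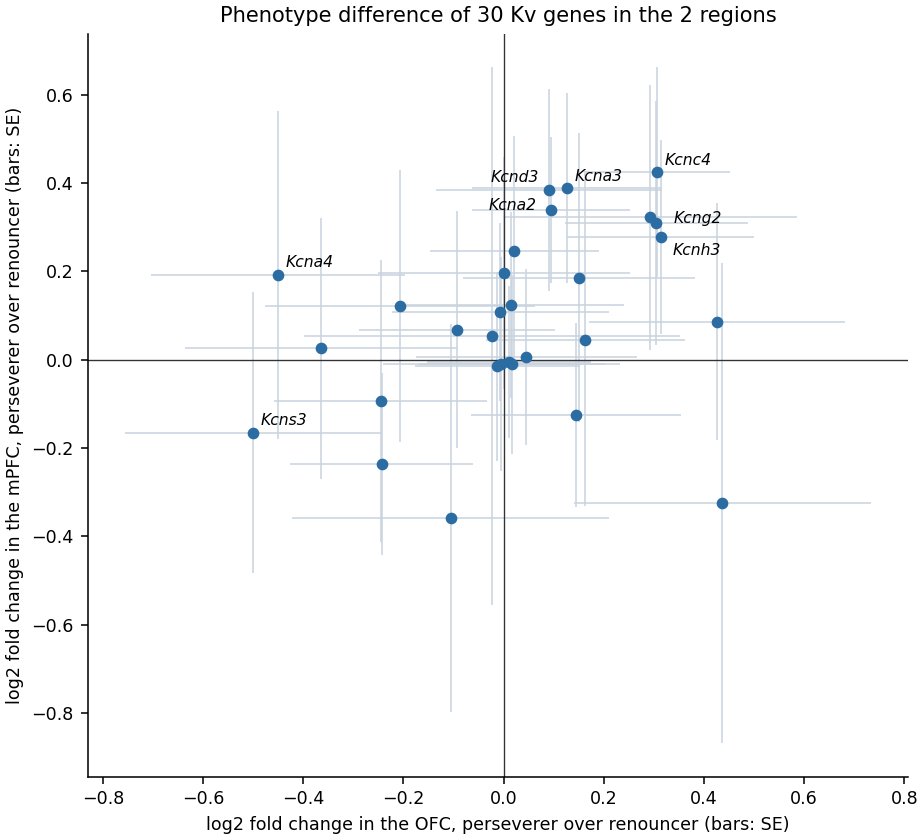
Log2 fold change of perseverers over renouncers in the OFC (horizontal) and the mPFC (vertical) for 30 Kv genes, with bars for the SE and names for genes with small p. Most points lie within about 0.5 of 0 on both axes, and none passed the threshold in either region.

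No member passed the test of whether the phenotype difference itself differs between the regions (edgeR, 0 of 35 passed, 0 at an unadjusted p under 0.05; 0% of 15025 genes passed; 0 members passed with DESeq2 and limma, 2 with limma at an unadjusted p under 0.05). The smallest p were those of Kcna4 (-0.63 ± 0.49), Kcnh4 (0.78 ± 0.64), Kcna2 (-0.23 ± 0.21) and Kcnh2 (0.35 ± 0.37), with an adjusted p of 1.0 each, given as OFC difference minus mPFC difference. Of the auxiliary genes 0 of 22 passed in either region or in this contrast. Dlg4, the postsynaptic scaffold that binds Kcna channels, led in the OFC (0.34 ± 0.19, adjusted p = 0.951) and Kcne4, a small inhibitory subunit, in the mPFC (1.94 ± 0.92, adjusted p = 0.943).

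In the OFC the phenotype difference of the Kv genes varied with the base composition of their transcripts. Over 34 members Spearman's rho between the log2 difference and the GC content of the longest coding transcript was 0.73 (Pearson's r 0.70), beside 0.24 over the 13611 genes with a GC value. In the mPFC it was 0.10 over 35 members, beside 0.19 over all genes. Genes with the highest GC content, such as Kcnh3 (61.2%), Kcnh2 (61.3%) and Kcng2 (61.5%), had differences of 0.31, 0.43 and 0.30, and those with the lowest, Kcnb2 (39.3%), Kcnh7 (39.6%) and Kcnv1 (41.0%), had -0.21, -0.09 and -0.24. Library by library, rho between a gene's deviation from its mean and its GC content was -0.51, 0.38 and -0.74 in the renouncers of the OFC and 0.35, -0.04 and 0.57 in the perseverers. Renouncers 1 and 3 were thus the most negative and renouncer 2 was positive. The genes of a library share its base-composition trend and are not independent, so no p is given, and the part of that trend in the phenotype difference was not tested.

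**Figure D4:**
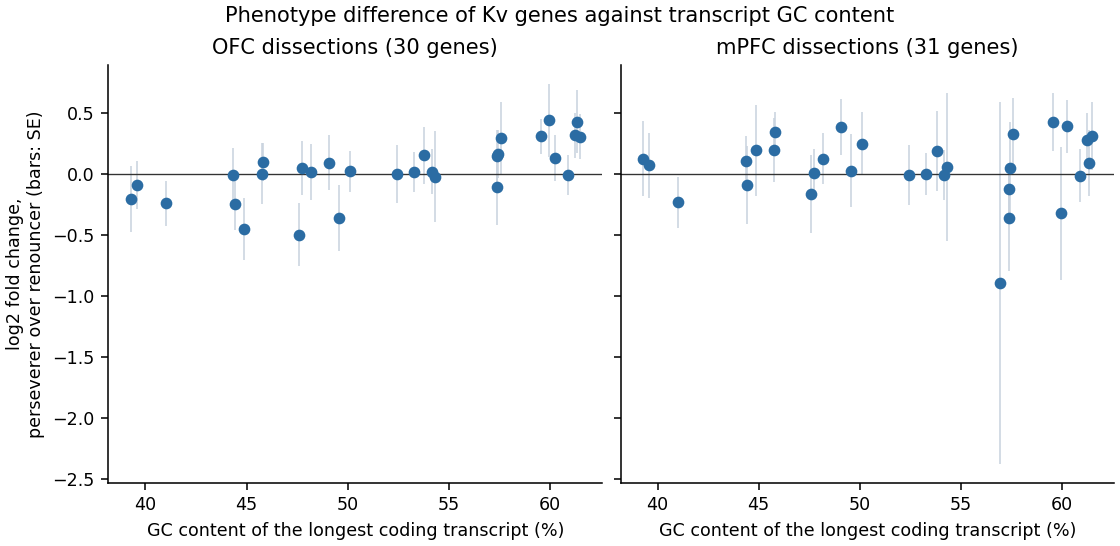
Log2 fold change of perseverers over renouncers (bars are the SE) against the GC content of the longest coding transcript for Kv genes tested in the OFC (left, 30 genes drawn) and the mPFC (right, 31 genes drawn). Values rise with GC content in the OFC (rho 0.73 over all 34 members tested) and show no clear trend in the mPFC (rho 0.10 over all 35).

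Before oDASS, the imprints of future perseverers and renouncers gave no Kv gene past the threshold. Only 19 of the 40 genes had enough counts to be tested, 0 passed (0% of 10530 genes did), and 0 had an unadjusted p under 0.05 with edgeR, DESeq2 or limma. In CPM without haemoglobin, Kcna1, a low-threshold axonal subunit, had 44.8, 2.01 and 19.4 in renouncer imprints and 62.8 and 22.4 in perseverer imprints (log2 difference 1.18 ± 0.74, adjusted p = 1.0). Kcnh7 had 37.8, 6.02 and 12.9 against 11.5 and 3.06 (-1.22 ± 0.89) and Kcna6 27.8, 16.1 and 42.5 against 30.6 and 7.14 (-0.73 ± 0.71). Kcng2 had 11.9, 0 and 12.9 against 6.12 and 0 (-1.39 ± 1.68), and Kcnc2 21.2, 0 and 11.1 against 6.12 and 2.04 (-1.11 ± 1.41). The groups overlapped for these 5 genes, and the values rest on 0 to 46 counts in the libraries other than renouncer imprint 1 except for Kcna1 in perseverer imprint 1 (82 counts). Dpp10 had the smallest p of the 19 auxiliary genes tested (-2.96 ± 1.02, adjusted p = 1.0), and it alone among them was under an unadjusted p of 0.05.

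The OFC imprints held less Kv RNA than the OFC dissections. With edgeR 17 of 34 members passed and all 17 were lower in the imprints, where 33.5% of 15229 genes passed and 17.9% passed as lower. Without haemoglobin the summed TPM of the 40 genes was 381 in renouncer imprint 1 and 84.7 to 162 in the other 4 imprints, against 682 to 1045 in the OFC dissections. The median log2 fold change over the 34 members was -1.27, beside -0.16 over all genes. Fold changes come from the TMM-scaled fit and the CPM below from library totals without haemoglobin, so the 2 scales differ. Stage and way of collection coincide in this comparison and cannot be told apart.

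Of the silent subunits, Kcnv1, Kcnf1, Kcns1, Kcns2 and Kcns3 passed as lower. Kcng1 (-1.58, edgeR adjusted p = 0.0513) narrowly missed the threshold, and Kcng2 (-1.25, 0.0825) and Kcng4 (0.42, 0.435) did not pass. Kcnv1 had a lowest, median and highest CPM without haemoglobin of 109, 166 and 190.5 in the OFC dissections, against 20.6, 8.03 and 4.62 in renouncer imprints and 6.89 and 3.06 in perseverer imprints. Its log2 fold change was -3.55 ± 0.30 (adjusted p = 2.90e-07). Kcnf1 had 115.3, 153 and 189 in dissections against 24.3, 8.03, 9.24, 5.36 and 4.08 in the imprints (-3.26 ± 0.31, adjusted p = 8.27e-07). Kcns2 had 26.6, 37.1 and 49.1 against 2.90, 1.0, 2.77, 0.765 and 0 (-3.87 ± 0.47, adjusted p = 1.11e-05). Kcns1 had 20.9, 26.1 and 29.8 against 1.68, 1.0, 1.85, 0.765 and 5.10 (-3.06 ± 0.53, adjusted p = 3.32e-04), resting on 1 to 11 counts per imprint. In rank by mean TPM, Kcnv1 went from the second of the 40 genes in the dissections to rank 16 in the imprints and Kcnf1 from the third to rank 14, while Kcnh3 stayed at rank 1. The imprint ranks of Kcnv1 and Kcnf1 rest on 135 and 159 counts in renouncer imprint 1. In the other imprints Kcnv1 had 3 to 9 counts and Kcnf1 4 to 10.

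Among the Kcnh genes, Kcnh3 had 207, 334 and 356 CPM in dissections against 123, 55.2, 56.4, 49.0 and 62.2 in the imprints (-1.36 ± 0.25, adjusted p = 6.03e-04). Kcnh1 had 49.4, 68.2 and 100.3 against 20.7, 9.04, 15.7, 9.18 and 8.16 (-1.80 ± 0.30, adjusted p = 2.35e-04). Kcnh2, the Erg subunit known from the heart's repolarizing current, had 14 counts in renouncer imprint 1 and 0 in the other 4 (-3.39 ± 0.66, adjusted p = 8.04e-04). Kcnh5 had 13.5 to 33.8 CPM in dissections and 0 to 10.5 in imprints (-1.42 ± 0.48, adjusted p = 0.0306).

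The M-channel subunit Kcnq5 had 50.5, 61.8 and 87.9 CPM in dissections against 24.4, 12.05, 13.9, 8.42 and 12.2 (-1.48 ± 0.31, adjusted p = 0.00171). Kcnq3, another subunit of M channels, did not pass, with 17.8 to 33.9 CPM in dissections against 53.5, 3.01, 24.0, 13.0 and 12.2 (0.26, adjusted p = 0.624). Renouncer imprint 1 was the highest of all libraries for Kcnq3 and below the lowest dissection for Kcnq5.

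Of the subunits that form channels of their own, Kcnc2, a subunit of fast-spiking interneurons, had 44.3, 65.9 and 96.8 CPM in dissections against 21.2, 0, 11.1, 6.12 and 2.04 (-2.47 ± 0.44, adjusted p = 3.97e-04). Kcnc1 (-0.71, adjusted p = 0.106) and Kcnc4 (-0.72, adjusted p = 0.105) did not pass. Kcnd3 had 14.6 to 27.3 CPM in dissections against 7.17, 1.0, 0.924, 6.12 and 5.10 (-1.61 ± 0.43, adjusted p = 0.00807).

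4 Kcna genes passed. Kcna6 had 77.6 to 111.7 CPM in dissections against 27.8, 16.1, 42.5, 30.6 and 7.14 (-1.26 ± 0.30, adjusted p = 0.00388), and Kcna1 97.2 to 138 against 44.8, 2.01, 19.4, 62.8 and 22.4 (-1.34 ± 0.34, adjusted p = 0.00574). Kcna2 had 107 to 135 CPM in dissections against 101, 16.1, 35.1, 51.3 and 31.6 (-0.68 ± 0.23, adjusted p = 0.0304), so that renouncer imprint 1 nearly reached the dissections. Kcna5, a subunit best known from heart and vessels, had 1.63 to 3.36 CPM in dissections and 0 counts in all 5 imprints. It was at least 9.72-fold lower against a floor of 3 counts over the group. Renouncer imprint 1 gave the largest part of the depth behind that floor (6556037 counts without haemoglobin, against 980475 to 1306576 in each of the others).

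The silent Kcns3, which also passed, had 5.63 to 11.2 CPM in dissections against 3.51, 0, 3.70, 0 and 1.02 (-1.68 ± 0.61, adjusted p = 0.0424). Its call was lost without any 1 of renouncer imprints 1 and 2, perseverer imprint 1 and the 6 dissections (adjusted p = 0.0513 to 0.0982). The call of Kcna2 was lost without renouncer imprint 3, perseverer imprint 1, renouncer dissection 1 or 3 or perseverer dissection 2 or 3 (0.0515 to 0.0801), and that of Kcnh5 without perseverer imprint 1, renouncer dissection 1 or 3 or perseverer dissection 1 or 2 (0.0513 to 0.0957). The other 14 calls held with each library left out in turn. With limma in place of edgeR the calls of Kcnq5 (adjusted p = 0.0502), Kcns3 (0.0675), Kcnh5 (0.0990) and Kcna2 (0.164) were lost, and with the gene-length trend removed those of Kcna6 (0.0728), Kcns3 (0.0978), Kcnh5 (0.107) and Kcna2 (0.139). With haemoglobin genes and renouncer imprint 1 both left out, an alternative added after the data were seen, 20 members passed, all lower.

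For all 17 called members every imprint was below every OFC dissection in CPM without haemoglobin. This held for 24 of 34 members tested, and for 28.4% of all genes. The 7 that did not pass the test were Kcng1, Kcng2, Kcnc4, Kcna3, Kcna4, Kcnd2 and Kcnb2. At the other end, Kcng4 had 11.6 to 18.2 CPM in dissections and 17.2, 3.01, 20.3, 8.42 and 9.18 in imprints. Its log2 fold change was 0.42 (edgeR adjusted p = 0.435). With Kcnq3 and Kcnh4 (0.09) it made up the 3 members with a positive fold change in the TMM-scaled fit. In CPM without haemoglobin, the Kcng4 imprints at 3.01, 8.42 and 9.18 lay below every dissection.

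**Figure D5:**
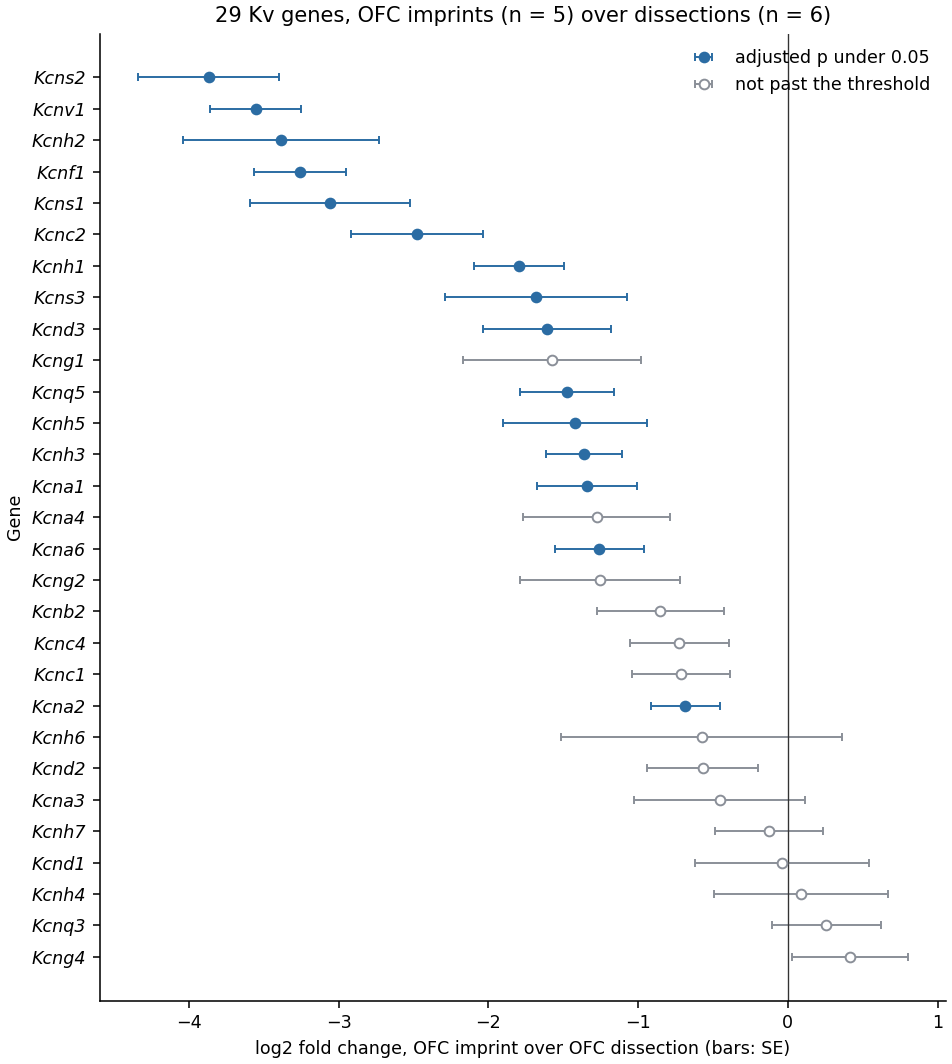
Log2 fold change with its SE of OFC imprints over OFC dissections for 29 Kv genes, where filled points passed an adjusted p under 0.05 (Kcna5, at 0 counts in all imprints, is left out). Filled points run from Kcns2 at -3.87 to Kcna2 at -0.68, and Kcnh4, Kcnq3 and Kcng4 lie at or above 0.

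The auxiliary genes were lower too, with 11 of 22 called, all lower, and a median of -1.18. They included Kcnip4 (-2.00 ± 0.32, adjusted p = 1.64e-04), Dpp10 (-2.55 ± 0.45, adjusted p = 3.73e-04), Dpp6 (-1.03 ± 0.27, adjusted p = 0.00757) and Kcnip3 (-0.74 ± 0.25, adjusted p = 0.0345), which join Kcnd channels, and Kcnab1 (-2.52 ± 0.43, adjusted p = 2.64e-04) and Kcnab2 (-0.93 ± 0.24, adjusted p = 0.00629), beta subunits of Kcna channels. The others were Amigo1, an adhesion protein that binds Kv channels (-1.66), the Kcna1 partners Lgi1 (-1.68) and Adam22 (-1.90), Cntn2 (-1.36) and the scaffold Dlg1 (-1.34).

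Markers of neurons were lower along with the Kv genes, and so were most markers of astrocytes. Of 5 excitatory markers 5 were called lower (median -1.15) and of 6 inhibitory markers 5 (median -1.65; summed TPM 112.1 to 428 in imprints, 1370 to 1903 in OFC dissections). Of 5 astrocyte markers 4 were called lower (median -0.84, summed TPM 162 to 1321 in imprints and 1209 to 1705 in OFC dissections). Of 4 microglia markers 4 were called higher (median 1.28, summed TPM 178 to 429 and 179.6 to 331), and of 7 red cell genes 7. In the imprints Drd2 was the marker at 0 in the list of striatal neurons, and Ttr and Folr1 in that of choroid plexus. The part of these cells in the Kv differences was not tested.

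No member passed with edgeR the test of whether the phenotype difference in the imprints differs from that in the OFC dissections. Of 34 members 0 passed, where 0% of 15229 genes passed. An unadjusted p under 0.05 was reached by 3 of the 34 members, where 8.77% of all genes (1336 of 15229) reached it. The smallest p belonged to Kcnf1, whose difference was lower in the imprints by a log2 value of -1.41 ± 0.54 (adjusted p = 0.522). Kcnh6 had 2 counts in renouncer imprint 2, 8 in perseverer imprint 1 and 0 in the other 3. No fold is given for this gene. With DESeq2 1 member passed in this contrast, among 73 genes, and with limma 0 members passed.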

How the data were processed

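Bulk RNA was sequenced from 17 mouse libraries in 6 groups taken from the sample titles. SMART-Seq v4 and Nextera kits were used, per the labels; these do not mark strand. The authors deposited raw counts per gene with a gene length in bases. Build mm10 and FastQC 0.11.8 appear in the submitters' processing notes; for the aligner, the counter and the annotation: not given in the sources used here.

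Counts were fitted with edgeR 4.0.16 (filterByExpr, TMM, robust quasi-likelihood, two-sided, Benjamini-Hochberg over all genes, threshold 0.05; approximate SE |log2 fold change|/√F). Region (12 dissections) and imprint against dissection (11 OFC libraries) had phenotype as a term, and phenotypes were compared within 1 table. DESeq2 1.42.0, limma 3.58.1 voom, scalings, filters and leave-outs were alternatives. TPM used deposited lengths and left out 10 haemoglobin genes. Positions and promoters came from RefSeq GRCm38.p6 (40 members matched, 25 with promoters), exon overlap and GC from GENCODE of that build. Fits were tested on simulated data.

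The members and lists were chosen with earlier results of these data known. Values are printed for members past the threshold, or up to 6 per comparison by smallest p (4 for contrasts of contrasts), the highest of each family, and up to 3 auxiliary genes. Some members are not reported here.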

Additional observations from a re-analysis of the deposited data

How the results depend on the processing

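Between regions 1 member passed in the main analysis, and Kcng4 passed under each alternative that kept both phenotypes. The number of members past the threshold was 6 with DESeq2 (685 genes in all, against 264), 4 with limma (888 genes), 2 with upper-quartile scaling, 2 with a mean count of at least 20, 5 at an adjusted p under 0.1 (525 genes), 2 with the gene-length trend removed, 0 in renouncers alone (15 genes), 0 in perseverers alone (8 genes), and 1 to 2 with each library left out (120 to 448 genes). With the replicate number as a block 9 members passed (1130 genes), among them Kcna2 (adjusted p = 0.00596), Kcnh5 (0.00234), Kcnd3 (0.00886) and Kcna3 (0.0316). The pairing was checked by the correlation of deviations of same-numbered OFC and mPFC libraries, which was 0.13, 0.02 and 0.12 in renouncers and 0.11, 0.30 and 0.36 in perseverers, so that not every pair exceeded 0.1. As a hint from the data, 10 of 12 libraries correlated best with their own number. Between imprints and dissections 13 to 20 members passed, all lower, under the alternatives run (main 17; 16 with the replicate block), and 13 to 17 of them were among the 17 of the main analysis (13 with limma, 15 with the block). There the median over all genes was -0.16 with TMM, -0.03 with RLE scaling and 0.14 with the length trend removed. Kcna2 and Kcns3 also missed the threshold there with RLE scaling, with a mean count of at least 20 and with the block. For the difference of phenotype contrasts between imprints and dissections, DESeq2 called 1 member. Kcnh2 changed sign with limma in the contrast of phenotype between regions (-0.0093 against 0.35, neither past the threshold), and Kcnh6 without perseverer imprint 1 in that between stages (-4.92 to 8.97 over the leave-outs); the cause was not tested. With haemoglobin genes kept, the mean summed TPM of the 40 genes in the imprints was 37.6 in place of 177. The 3 comparisons between phenotypes called 0 members under every alternative (for the imprints, 1 fit of all 17 libraries called 63 genes against 0), in imprints with as few as 228 counts on the 40 genes.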
